A study of Mus musculus with 4 samples.

Results

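Mitochondrial ribosomal protein genes encode the protein subunits of the ribosome that works inside mitochondria. The cells are a mouse Th1 clone, CD4 helper T cells of single-cell origin whose hallmark cytokine is interferon gamma. The members are the genes whose single symbol in the platform's probe annotation begins with Mrps (small subunit) or Mrpl (large subunit) followed by a number. There were 61 such genes among 8251 with a single symbol on the array, read by 76 of 12488 probe sets, and 58 of the 61 passed the filter on low values. Of the 4 arrays, 2 hold RNA of the clone after anergy was induced by anti-CD3 antibody bound to a plate (anergic arrays 1 and 2). The other 2 hold RNA of the normal, quiescent clone (control arrays 1 and 2). Separate cultures are not stated for the arrays of a group, and the p-values therefore measure a spread that may be technical. The sources used here give neither the mouse strain nor the duration of the treatment, and 1 clone is a narrow model of T cells.

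Mitochondria keep a small genome that encodes core subunits of the respiratory chain and of ATP synthase, and their own ribosome translates it. The ribosomal RNAs come from that genome, whereas every protein subunit is encoded in the nucleus, made in the cytosol and imported. In T cells, growth after activation is accompanied by a build-up of mitochondria, and translation inside mitochondria is needed for proliferation and effector function. An anergic T cell responds poorly to its next stimulus, having received receptor signals without full costimulation. The comparison of the 2 groups asks which of these genes differ in level between the anergic and the quiescent state.

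The promoters of 5 members are shown as examples. They are the member that rose, the member with the largest negative difference, and 3 members chosen because their windows carry a searched motif. Sequences are from RefSeq, build GRCm38.p6, and run 5′ to 3′ on the strand of the gene, from 250 bases before to 50 bases after its start. Capitals mark a motif match on either strand, and all other letters are in lower case. The Mrps25 window is chr6:92183974-92184273 on the minus strand and the Mrpl23 window chr7:142532782-142533081 on the plus strand, and neither holds any of the 4 motifs. The Mrpl21 window is chr19:3282792-3283091 on the plus strand, the Mrpl2 window shown chr17:46645971-46646270 on the plus strand and the Mrps11 window chr7:78782881-78783180 on the plus strand. Mrpl2 has 3 windows, and the choice among them favoured the window with most motifs. Each of the other genes shown has 1. The capitals mark the ETS motif in Mrpl21, the E-box in Mrpl2 and the YY1 motif in Mrps11.
Mrps25: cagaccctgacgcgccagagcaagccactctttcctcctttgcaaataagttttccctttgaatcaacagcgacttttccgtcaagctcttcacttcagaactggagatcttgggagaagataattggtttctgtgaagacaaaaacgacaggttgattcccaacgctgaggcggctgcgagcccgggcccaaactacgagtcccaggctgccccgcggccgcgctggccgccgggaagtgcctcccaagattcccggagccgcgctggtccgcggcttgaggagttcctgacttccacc
Mrpl23: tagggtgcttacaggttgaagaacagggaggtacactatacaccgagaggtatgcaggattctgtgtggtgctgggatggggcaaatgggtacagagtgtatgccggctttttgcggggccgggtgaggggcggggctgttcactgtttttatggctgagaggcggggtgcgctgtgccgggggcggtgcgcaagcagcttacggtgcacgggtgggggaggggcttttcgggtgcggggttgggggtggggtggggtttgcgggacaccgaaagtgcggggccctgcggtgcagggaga
Mrpl21: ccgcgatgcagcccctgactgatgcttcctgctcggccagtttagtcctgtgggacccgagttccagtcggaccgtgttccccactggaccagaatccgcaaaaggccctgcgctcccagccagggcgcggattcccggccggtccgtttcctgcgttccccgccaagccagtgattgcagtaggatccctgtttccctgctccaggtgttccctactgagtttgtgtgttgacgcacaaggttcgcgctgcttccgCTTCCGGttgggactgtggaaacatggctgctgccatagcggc
Mrpl2: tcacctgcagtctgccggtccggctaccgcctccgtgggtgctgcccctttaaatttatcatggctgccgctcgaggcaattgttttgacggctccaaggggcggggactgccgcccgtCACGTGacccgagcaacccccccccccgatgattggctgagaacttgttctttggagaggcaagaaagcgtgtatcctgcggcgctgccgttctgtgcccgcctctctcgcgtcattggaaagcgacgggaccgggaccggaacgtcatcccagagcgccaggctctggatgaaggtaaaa
Mrps11: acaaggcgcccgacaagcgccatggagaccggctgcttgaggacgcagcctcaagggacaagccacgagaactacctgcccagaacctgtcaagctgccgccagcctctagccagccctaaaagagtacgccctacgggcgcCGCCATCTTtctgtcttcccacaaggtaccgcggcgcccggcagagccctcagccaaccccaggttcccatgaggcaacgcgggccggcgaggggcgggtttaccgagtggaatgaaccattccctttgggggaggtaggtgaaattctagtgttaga

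A promoter window was found for 54 members, with 60 windows in all. The ETS motif CCGGAAG, a form bound by the GABPA factor that serves many nuclear genes of mitochondria, was in 31.7% of these windows, against 8.86% of all 32851 windows in the table. The YY1 motif AAGATGGCG was in 11.7% of member windows and 1.4% of all windows. The NRF1 core GCGCATGCG was in 5% and 1.75%, and the E-box CACGTG, the site of Myc with its partner Max, in 10% and 7.15%. The 6 member windows with the E-box came from only 4 of the 54 members, so its share by window overstates that by gene. For the other motifs the counts of windows and genes were equal. All 4 motifs were searched on both strands, and matches of different motifs shared bases in 0 of the 60 member windows. Of the 20 members with a window whose anergic arrays both lay below both control arrays, 5 held the ETS motif, 3 the E-box, 3 the YY1 motif and 0 the NRF1 core. Among the other 34 the counts were 14, 1, 4 and 3. These matches describe letters in a window and were not tied to the expression values by any test.

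Members also often sat head to head with another gene. For 19 of 54 members (35.2%) the start of a gene on the opposite strand lay within 1000 bases upstream, against 12.3% of 27025 genes. The shared promoter of Mrpl46 and Mrps11, which are 42 bases apart, joins 2 members. Apart from that pair, 4 partners were tested on the arrays and none passed: Sars2 differed by -0.75 ± 0.32 (SE), Tcp1 by -0.67 ± 0.32, Hira by -0.04 ± 0.30 and Klc4 by 0.15 ± 0.28 on the log2 scale. Sars2, which encodes the mitochondrial seryl-tRNA synthetase, shares its promoter region with Mrps12, itself at -0.05 ± 0.31.

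Deposited values are probe-set intensities on a linear scale, and the trimmed mean was 500.3 on each of the 4 arrays. Median intensities over all probe sets were 134.1 and 175.8 on anergic arrays 1 and 2, against 146.5 and 191.2 on control arrays 1 and 2. Differences are given as log2(intensity + 29.15), anergic minus control, a scale that understates the change of dim genes. Of 15 listed markers of the clone 12 were tested and 0 passed in limma, where 1.33% of all genes were higher and 0.842% lower. At an unadjusted p under 0.05, 2 were higher and 2 lower, against 6.32% and 6.38% of all genes. Ifng was at 3869 and 4864 on the anergic arrays and 2132 and 2649 on the control arrays (0.86 ± 0.24, adjusted p = 0.132). Thy1 was at 7301 and 8521 on the anergic arrays and 13440.1 and 10658 on the control arrays (-0.60 ± 0.23, adjusted p = 0.297), and Cd5 did not pass the filter. Among markers of CD8 T cells and NK cells, Cd8a and Cd8b1 were under the filter (6.2 to 18 for Cd8a), whereas the NK receptor gene Klrd1 was at 5139 and 4723 on the anergic arrays and 4304 and 5511 on the control arrays.

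Summed over the 9 measured macrophage and dendritic cell markers, intensity was 1608 and 2262 on the anergic arrays and 1544 and 1999 on the control arrays. Single genes of that list differed in both directions. Cd68 was at 498 and 532 on the anergic arrays and 71 and 91.3 on the control arrays, and rose by 2.31 ± 0.36 (SE, limma adjusted p = 0.0103). Mpeg1 was at 93.8 and 156 on the anergic arrays and 214 and 320.0 on the control arrays (-0.95 ± 0.42, adjusted p = 0.389). Lyz2, under the filter, was at 11.7 and 11.4 on the anergic arrays and 129.1 and 73.3 on the control arrays, and Csf1r at 118 and 344 on the anergic arrays and 171 and 233 on the control arrays. The B cell list summed to 614 and 835 on the anergic arrays and 597 and 941 on the control arrays, with Cd79a at -0.25 ± 0.42 and Ms4a1 at 0.12 ± 0.40. The stromal list summed to 5823 and 5933 on the anergic arrays and 3455 and 4486 on the control arrays. In it Lum was at 4399 and 3752 on the anergic arrays and 1674 and 2519 on the control arrays (0.97 ± 0.26, adjusted p = 0.115), and Col1a1 differed by -0.20 ± 0.37. Whether other cells had a part in any difference was not tested. In bulk samples, fewer cells of a type and less RNA per cell cannot be told apart.

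Most mitochondrial ribosomal protein genes had lower values in anergic cells, by small amounts, and a single member, Mrps25, passed the test and rose. Of the 58 tested, 48 had a negative difference (82.8%, against 58.1% of all 5583 genes tested), and the median difference was -0.295 on the log2 scale, against -0.085 for all genes. The middle of the members' range ran from -0.53 to -0.06, between the quartiles. In limma with Benjamini-Hochberg adjustment over all 5583 genes, 1 of the 58 members was higher, where the background is 1.33% of genes. Lower were 0 of the 58, where it is 0.842%, so the members passed about as often as all genes. At an unadjusted p under 0.05, 5 of the 58 were lower, a share little above the 6.38% of all genes. Only 1 of the 58 was higher, a share below the 6.32% of all genes. In 24 members both anergic arrays lay below both control arrays (41.4%, against a background of 24.0%), and in 2 both lay above (3.45%, against 17.3%). Genes of similar intensity, 2069 other genes within the members' interquartile range of mean log2 value, 8.32 to 9.91, had a median of -0.093, with 59% negative and 26.1% not overlapping in the downward direction. These shares describe the list and were not tested.

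**Figure D1:**
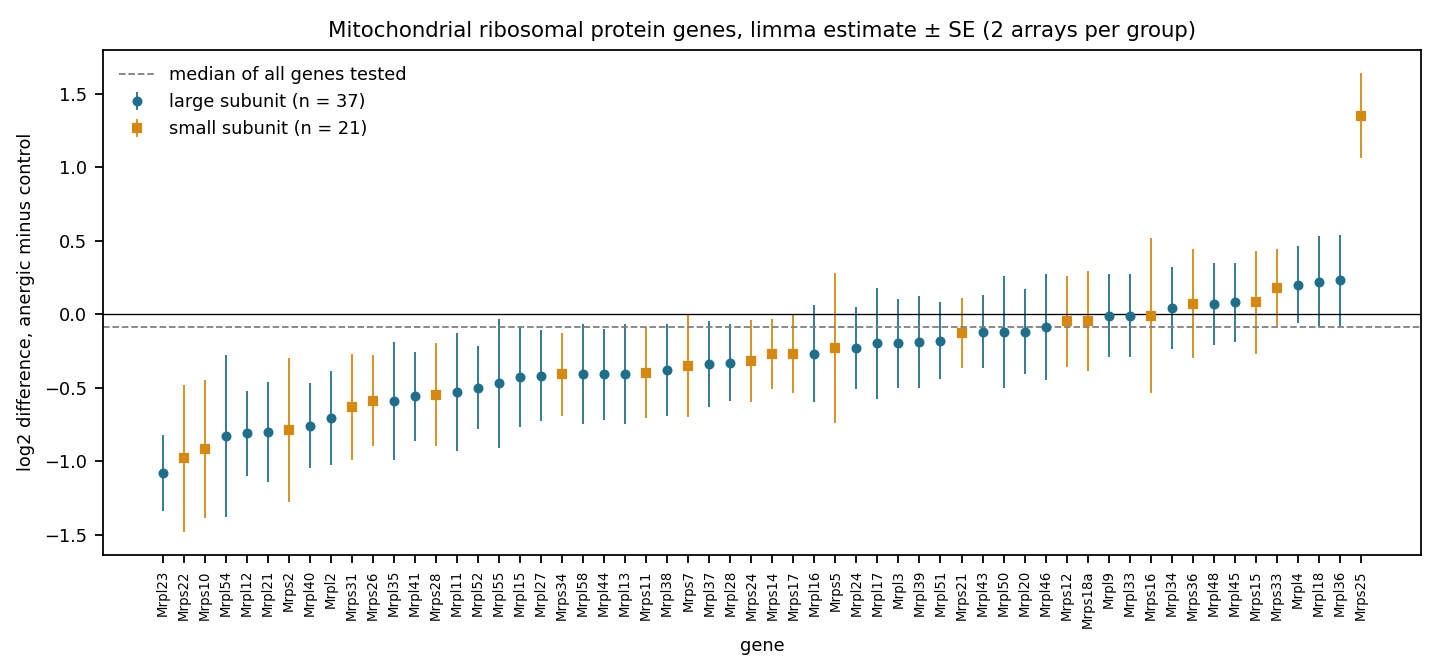
The log2 difference (y axis, anergic minus control, limma estimate with its SE as the bar, 2 arrays per group) is shown for the 58 tested members in rising order, with the subunit by colour and the median of all genes as a dashed line. Mrpl23 lies lowest at -1.08, 48 genes lie below 0, and Mrps25 stands apart at 1.35.

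**Figure D2:**
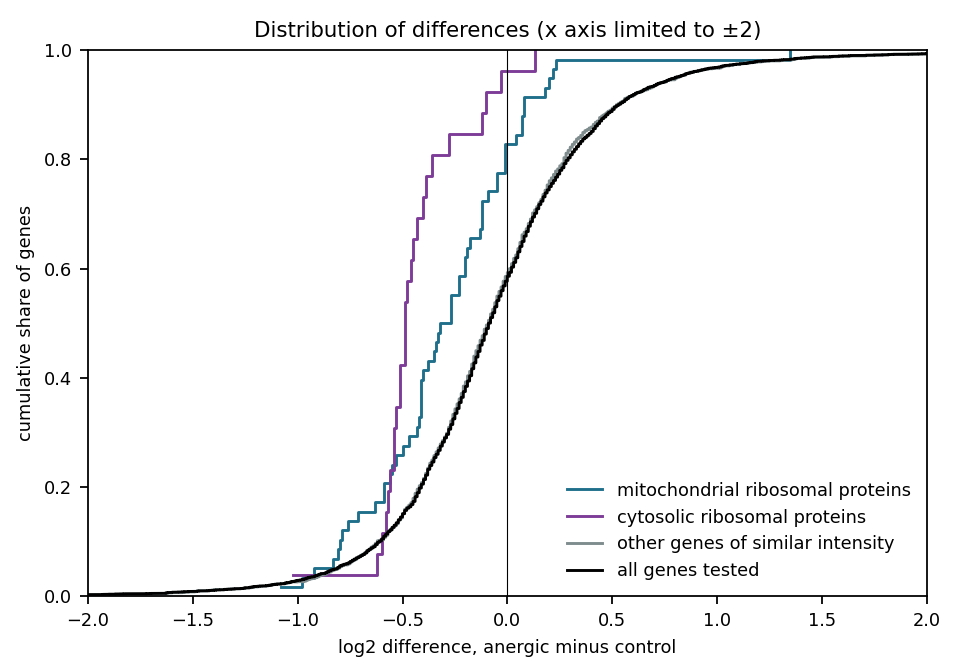
The cumulative share of genes (y axis) is plotted against the log2 difference (x axis, anergic minus control, limited to 2 on either side) for the 58 members, 26 cytosolic ribosomal protein genes, 2069 other genes of similar intensity and all 5583 genes. The members' curve lies left of both gene backgrounds through most of its range, with medians of -0.295 against -0.093 and -0.085, and the cytosolic curve lies further left around its median of -0.487.

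The position of the members relative to other genes varied with the arrays compared. Control array 1 held the highest value of the 4 arrays in 36 of 58 members (62.1%), against 24.6% of all genes. The members' median log2 value minus that of all genes was -0.04 and -0.23 on anergic arrays 1 and 2, and 0.24 and -0.07 on control arrays 1 and 2, so the groups overlapped by this measure. The median difference between 1 anergic and 1 control array was -0.35 and -0.48 for anergic arrays 1 and 2 against control array 1, where all genes were at -0.10 and 0.06. Against control array 2 it was -0.13 and -0.26, where all genes were at -0.20 and -0.06. Without control array 1 the members' median was -0.17, against -0.140 for all genes, with 44 of 58 negative (75.9%, against 61.2%). The members' median minus that of all genes was -0.210 with all 4 arrays, -0.336 without anergic array 1, -0.108 without anergic array 2, -0.029 without control array 1 and -0.358 without control array 2. Of the pairs that leave control array 1 out, anergic array 2 and control array 2 had 79.3% of members lower, against 55.6% of all genes. Anergic array 1 and control array 2 had 63.8% lower, close to the 61.2% of all genes. Centring each array on its median raised the median of all genes by 0.106, and the members were then at -0.19 with 42 of 58 negative (72.4%, against 47.8% of all genes). The 2 control arrays differed from each other by -0.27 over the members (array 2 minus array 1), where all genes were at 0.10. The anergic arrays differed by -0.15, where all genes were at 0.09. Relative to all genes, both of these gaps between single replicate arrays were larger than that between the groups (-0.210). The group gap averages 2 arrays on each side, so it is expected to vary less than a gap between single arrays. The part of this spread between arrays in the result was not tested.

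**Figure D3:**
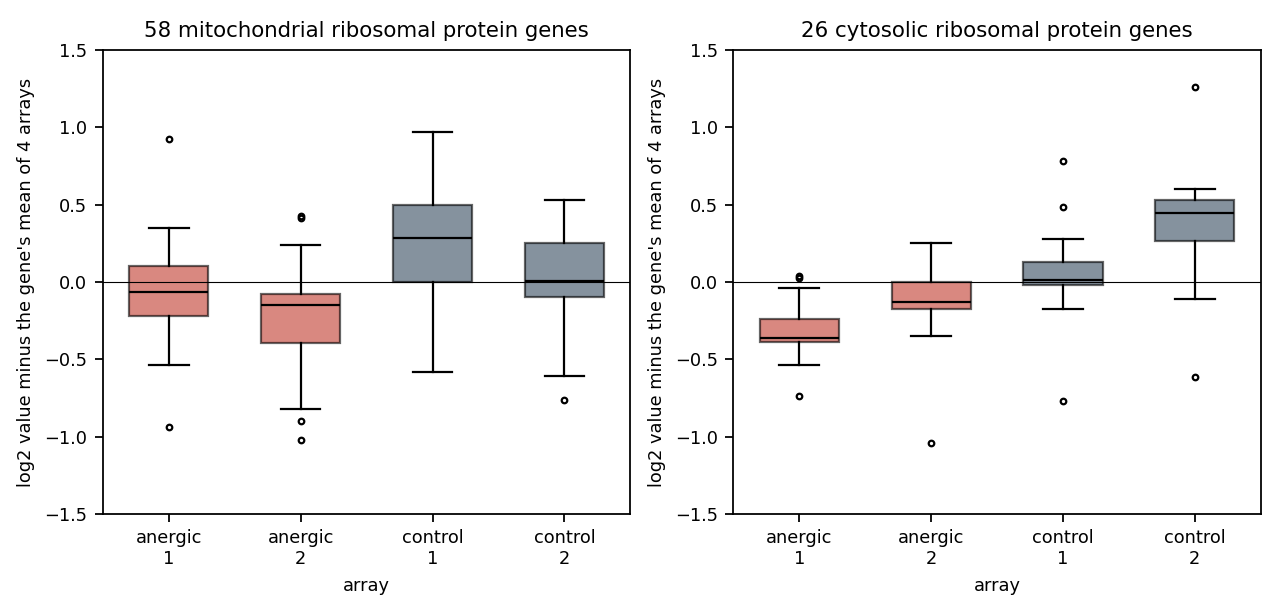
Each box shows, per array, the log2 value of a gene minus that gene's mean over the 4 arrays (y axis), for the 58 mitochondrial ribosomal protein genes on the left and 26 cytosolic ribosomal protein genes on the right (line, median; box, quartiles; whiskers, 1.5 interquartile ranges). Control array 1 is highest for the mitochondrial set, where 36 of 58 genes peak, against 24.6% of all genes. Control array 2 is highest for the cytosolic set, where 22 of 26 do, against 32.8% of all genes.

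Mrps25 encodes a small-subunit protein found in mitochondrial but not in bacterial ribosomes. Its brighter probe set was at 1474 and 1039 on anergic arrays 1 and 2, against 499 and 437 on control arrays 1 and 2. Both anergic arrays lay above both control arrays. The log2 difference was 1.35 ± 0.29 (SE), a fold of 2.55, with a limma adjusted p of 0.0432 that ranked it 113 of 5583 genes. That probe set belongs to the kind marked in its name as shared by a family of sequences, so other transcripts may add to its signal. The second probe set of Mrps25 was at 762 and 638 on the anergic arrays and 314 and 389 on the control arrays, a difference of 0.94 ± 0.29 with adjusted p = 0.24 over the 7453 probe sets. The groups did not overlap there either. The call sat close to the threshold. It was lost with arrays centred on their medians (1.46, adjusted p = 0.199), with quantile normalization (1.39, 0.0705), with the mean of the probe sets (1.15, 0.0736), with no filter (1.35, 0.0635) and without the intensity trend (1.35, 0.145). It was also lost without anergic array 1 (1.11, 0.426) and without anergic array 2 (1.60, 0.0749), and over probe sets the brighter one had adjusted p = 0.0786. In that fit 0 of the 67 member probe sets passed, where the background is 0.912% higher and 0.429% lower. Its sign was positive under all 13 alternatives.

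**Figure D4:**
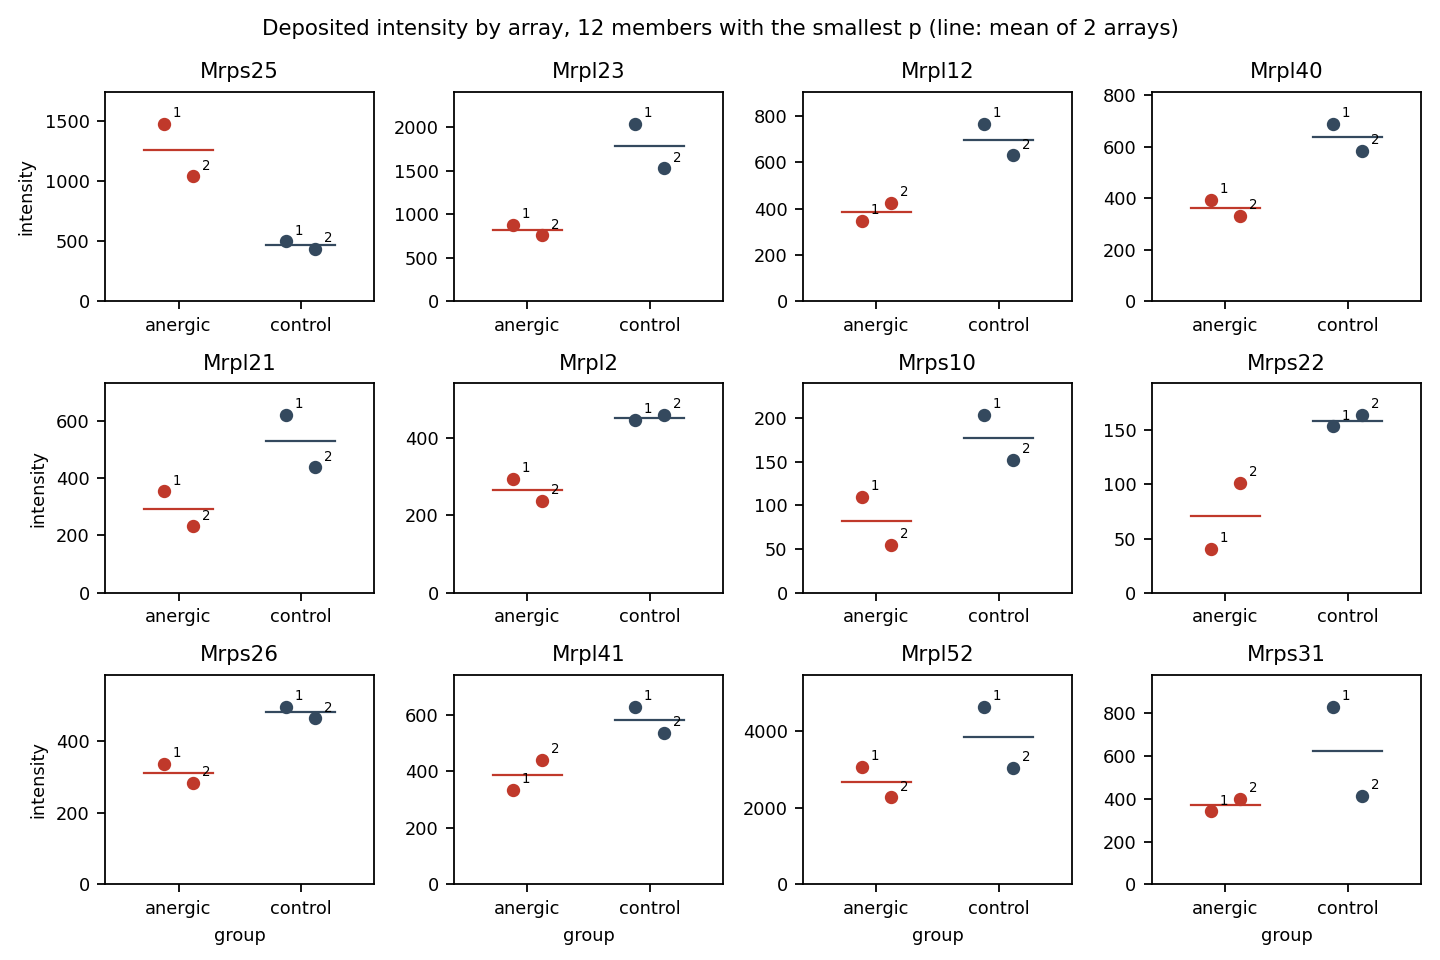
Deposited intensity (y axis, linear, from 0) is shown by array for the 12 members with the smallest p, with anergic arrays on the left, control arrays on the right, array numbers beside the points and the mean of 2 arrays as a line. Mrps25 is the member with higher anergic values, and in Mrpl52 alone of the other 11 the groups overlap, since anergic array 1 (3075) lay above control array 2 (3048).

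Among large-subunit genes Mrpl23, whose protein sits by the exit of the tunnel through which the new chain leaves the ribosome, had the largest negative difference of all members. It was at 876 and 759 on the anergic arrays, against 2038 and 1525 on the control arrays, a fold of 0.47, and the groups did not overlap. The difference was -1.08 ± 0.26 (SE) and missed the threshold in limma (adjusted p = 0.081). Without control array 2 it passed (-1.29, adjusted p = 0.0058), and without control array 1 it was at -0.88 (adjusted p = 0.162). Mrpl12, which forms the stalk that brings translation factors to the ribosome and also binds the mitochondrial RNA polymerase, was at 347 and 425 on the anergic arrays and 766 and 629 on the control arrays. Its difference was -0.81 ± 0.29 (adjusted p = 0.269), with no overlap of the groups.

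Mrpl40, a gene of the human chromosomal interval that is deleted in DiGeorge syndrome, was at 394 and 334 on the anergic arrays and 690.2 and 585 on the control arrays (-0.76 ± 0.29, adjusted p = 0.303). Mrpl21 was at 354 and 231 on the anergic arrays and 619 and 438 on the control arrays (-0.80 ± 0.34, adjusted p = 0.371). In both genes the groups did not overlap. Mrpl2, whose protein lies near the catalytic centre that joins amino acids, was at 294 and 238 on the anergic arrays and 445 and 458 on the control arrays (-0.71 ± 0.32, adjusted p = 0.391). A second, dimmer probe set of Mrpl2 gave -0.21 ± 0.46, with 91 and 99.1 on the anergic arrays against 142.6 and 90.9 on the control arrays, and overlapped.

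Mrpl41 was at 335 and 439 on the anergic arrays and 628 and 535 on the control arrays, without overlap (-0.56 ± 0.30, adjusted p = 0.509). Mrpl52 was at 3075 and 2277 on the anergic arrays and 4644 and 3048 on the control arrays, with overlap (-0.50 ± 0.28, adjusted p = 0.522). Over all 37 large-subunit genes tested the median was -0.330, 31 were negative (83.8%, against 58.1% of all genes) and 15 did not overlap in the downward direction (40.5%, against 24.0%). None passed the limma test, and 5 were lower at an unadjusted p under 0.05, where 6.38% of all genes were. The other large-subunit genes whose anergic arrays both lay below both control arrays were Mrpl11 (-0.53), Mrpl15 (-0.43), Mrpl20 (-0.12), Mrpl28 (-0.33), Mrpl35 (-0.59), Mrpl37 (-0.34), Mrpl38 (-0.38), Mrpl43 (-0.12) and Mrpl58 (-0.41). The protein of Mrpl58 releases chains from stalled ribosomes, and that of Mrpl11 sits at the base of the stalk. Mrpl11 shows how far 1 array could set a value, with 184 and 164 on the anergic arrays and 356 and 196 on the control arrays.

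Large-subunit genes with overlapping groups and a negative difference were Mrpl54 (-0.83), Mrpl55 (-0.47), Mrpl27 (-0.42), Mrpl13 (-0.41), Mrpl44 (-0.41), Mrpl16 (-0.27), Mrpl24 (-0.23), Mrpl3 (-0.20), Mrpl17 (-0.20), Mrpl39 (-0.19), Mrpl51 (-0.18), Mrpl50 (-0.12), Mrpl46 (-0.09), Mrpl33 (-0.01) and Mrpl9 (-0.01). The proteins of Mrpl27 and Mrpl16 lie at the catalytic centre, and that of Mrpl44 carries a domain related to the nuclease RNase III. Mrpl27 was at 730 and 884 on the anergic arrays and 1412 and 827 on the control arrays, so anergic array 2 exceeded control array 2. Positive differences were measured for Mrpl36 (0.23 ± 0.31), Mrpl18 (0.22 ± 0.31), Mrpl4 (0.20 ± 0.26), Mrpl45 (0.08 ± 0.27), Mrpl48 (0.07 ± 0.28) and Mrpl34 (0.04 ± 0.28), each smaller than its SE. In Mrpl45, whose protein anchors the ribosome to the inner membrane, both anergic arrays (670.0 and 649) lay above both control arrays (645 and 604). The second probe set of Mrpl45 had the opposite sign (-0.32 ± 0.27), as did that of Mrpl48 (-0.18 ± 0.33).

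Among small-subunit genes the largest negative differences were in dim ones. Mrps22, which in human causes respiratory chain deficiency when mutated, was at 40.6 and 101 on the anergic arrays and 153 and 164 on the control arrays (-0.98 ± 0.50, limma adjusted p = 0.488). Mrps10 was at 109.9 and 55.3 on the anergic arrays and 203 and 152 on the control arrays (-0.92 ± 0.47, adjusted p = 0.488). In both the groups did not overlap, but the anergic arrays lay far apart from each other. Mrps26 was at 336 and 283 on the anergic arrays and 495 and 463 on the control arrays (-0.59 ± 0.31, adjusted p = 0.493). Mrps31 was at 342 and 399 on the anergic arrays and 832 and 414 on the control arrays (-0.63 ± 0.36, adjusted p = 0.55), where control array 1 alone was far from the rest.

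Over the 21 small-subunit genes tested the median was -0.270, with 17 negative (81%, against 58.1% of all genes) and 9 without overlap in the downward direction (42.9%, against 24.0%). The difference between the medians of the subunits was not tested. Also below both control arrays were Mrps28 (-0.55), Mrps34 (-0.41), Mrps11 (-0.40), Mrps7 (-0.35) and Mrps14 (-0.27). Mrps7 binds the ribosomal RNA early in assembly of the subunit. Mrps2 (-0.79), Mrps24 (-0.32), Mrps17 (-0.27), Mrps5 (-0.23), Mrps21 (-0.13), Mrps12 (-0.05), Mrps18a (-0.05) and Mrps16 (-0.01) had overlapping groups. Mrps12, part of the centre that reads the codon, was at 553 and 393 on the anergic arrays and 461 and 510 on the control arrays. Mrps18a, whose human counterpart has been placed in the large subunit, was read by 4 probe sets with differences between -0.33 and -0.05. Positive differences besides that of Mrps25 were measured for Mrps33 (0.18 ± 0.26), Mrps15 (0.08 ± 0.35) and Mrps36 (0.07 ± 0.37). The protein of Mrps36 is known as a part of the oxoglutarate dehydrogenase complex.

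Members were also divided by their number, since those up to 21 in the small and up to 36 in the large subunit are named after bacterial proteins, while most with higher numbers were added in mitochondria. The median was -0.379 over 25 higher-numbered genes, with 11 not overlapping in the downward direction (44%). It was -0.269 over 33 genes with bacterial numbers, with 13 not overlapping (39.4%). Both shares lay above the background of 24.0%, and the difference between them was not tested. Mrpl14, Mrpl42 and Mrpl49 did not pass the filter on low values. Mrpl42 was at 109.1 and 100.4 on the anergic arrays and 99.5 and 46.5 on the control arrays. Mrpl14 was at 36.4 and 28.5 on the anergic arrays and 23.8 and 52.9 on the control arrays, and Mrpl49 at 20.5 and 17.7 on the anergic arrays and 8.9 and 33.3 on the control arrays.

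Of 12 members with several probe sets, 7 had more than 1 above the filter, and in 5 of these 7 the signs matched (Mrpl2, Mrpl18, Mrpl50, Mrps18a and Mrps25), Mrpl45 and Mrpl48 being the exceptions. A further 5 probe sets list a mitochondrial ribosomal protein gene together with another gene, so they were not counted as members, and all had negative differences. The probe set shared by Gm13552 and Mrps18b was at 274 and 258 on the anergic arrays and 629.6 and 563 on the control arrays (-1.08). Those shared by Nme3 and Mrps34 were at -0.53 and -0.63, in the direction of the unique Mrps34 probe set. Those shared by Ccdc142 and Mrpl53 and by Gm6238 and Mrpl30 were at -0.35 and -0.33. Among members known under other names, Dap3, a GTP-binding small-subunit protein gene, differed by -0.54 ± 0.33 and Ptcd3 by -0.38 ± 0.29, both without overlap and neither past the threshold.

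Genes that work with the mitochondrial ribosome did not move as 1 block, and 0 passed the limma test in the lists of translation factors, assembly factors, aminoacyl-tRNA synthetases, mitochondrial DNA maintenance and transcription, and import and folding. At an unadjusted p under 0.05 there were 3 lower assembly genes, 1 lower synthetase gene, 1 lower gene of DNA maintenance and transcription, 1 higher translation factor, and 2 lower and 1 higher import and folding genes. These lists held 6 assembly, 8 synthetase, 11 maintenance, 6 translation factor and 23 import genes, and the shares over all genes were 6.38% lower and 6.32% higher. After adjustment, 0.842% of all genes were lower and 1.33% higher. The elongation factor gene Tufm was at 1064 and 1045 on the anergic arrays and 566 and 684 on the control arrays (0.73 ± 0.26, adjusted p = 0.265), and its exchange factor gene Tsfm was at 577 and 586 on the anergic arrays and 438 and 456 on the control arrays (0.36 ± 0.28). In both, all anergic values lay above all control values, opposite in sign to most ribosomal proteins. The median over the 6 genes of the translation factor list was 0.004, with Gfm1 (0.32 ± 0.39) also positive and 3 negative. The negative ones were Mtif2 (-0.34 ± 0.31), Lrpprc (-0.38 ± 0.35) and Slirp (-0.32 ± 0.25). Lrpprc and Slirp encode proteins that bind mitochondrial mRNA and are not translation factors in the strict sense.

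Of 6 assembly genes tested, 5 were lower without overlap, against 24.0% of all genes, or 4 of 5 without Ddx18, and the median of the 6 was -0.557. Rpusd4, which modifies mitochondrial ribosomal RNA, was at 288 and 312 on the anergic arrays and 675 and 446 on the control arrays (-0.81 ± 0.32, adjusted p = 0.317). The gene with the smallest p in that list, Ddx18 (-0.74 ± 0.26, adjusted p = 0.237), encodes a helicase of nucleolar ribosome assembly and is not a mitochondrial factor. Of 11 genes of mitochondrial DNA maintenance and transcription 10 were negative, with a median of -0.265. There Ssbp1, the single-strand DNA binding protein, was at 357 and 328 on the anergic arrays and 726 and 604 on the control arrays (-0.90 ± 0.29, adjusted p = 0.201), and the polymerase gene Polrmt was at -0.57 ± 0.32. Of 8 genes in the synthetase list 6 were negative (75%, against 58.1% of all genes, median -0.287), led by Sars2 (-0.75 ± 0.32) and Tars2 (-0.64 ± 0.32). The negative ones include Qrsl1 (-0.12 ± 0.38), an amidotransferase subunit gene, and Kars (-0.55 ± 0.49) and Gars (-0.40 ± 0.28), whose enzymes also serve the cytosol. Fars2 (0.48 ± 0.28) and Iars2 (0.19 ± 0.29) were positive. In 23 import and folding genes the median was 0.026, with the chaperonin gene Hspe1 at -0.86 ± 0.25 and the chaperone gene Timm8b at 0.76 ± 0.25.

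Among 9 regulators of mitochondrial biogenesis Myc fell and the other 8 did not pass, where 0.842% of all genes were lower. Myc was at 66.4 and 101.5 on the anergic arrays, against 378 and 517 on the control arrays (-2.08 ± 0.39, limma adjusted p = 0.0251). Both of its anergic arrays lay below both control arrays. Myc encodes the transcription factor that binds the E-box searched above, a motif held by 4 of 54 members. Its partner gene Max was at 626 and 509 on the anergic arrays and 302 and 419 on the control arrays (0.62 ± 0.31, adjusted p = 0.475). For the ETS and YY1 motifs, the factor genes Gabpa (-0.41 ± 0.29, limma adjusted p = 0.652) and Yy1 (-0.30 ± 0.26, adjusted p = 0.738) did not pass. A link between any of these factors and the members was not tested.

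Cytosolic ribosomal protein genes, which serve the main ribosome of the cell, were also mostly negative, but by a different array pattern. Of 26 tested, 25 were negative (96.2%, against 58.1% of all genes) and 17 did not overlap in the downward direction (65.4%, against the background of 24.0%). In limma 0 passed, and 7 were lower at an unadjusted p under 0.05, where 6.38% of all genes were. The median was -0.487. Rps19 was at 9551 and 4547 on the anergic arrays and 16201 and 11033 on the control arrays (-1.02 ± 0.34, adjusted p = 0.224), and Rpl8 was at 12726 and 14684 on the anergic arrays and 18152 and 24512 on the control arrays (-0.62 ± 0.23, adjusted p = 0.286). Control array 2 was the highest array for 22 of the 26, against 32.8% of all genes, and control array 1 for 4, against 24.6%. Without control array 2 the cytosolic median was -0.24, and with quantile normalization -0.14, whereas the mitochondrial median was -0.38 and -0.29 under these settings. Without control array 1 the cytosolic median was -0.71 and the mitochondrial median -0.17. The difference between the lists was not tested.

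**Figure D5:**
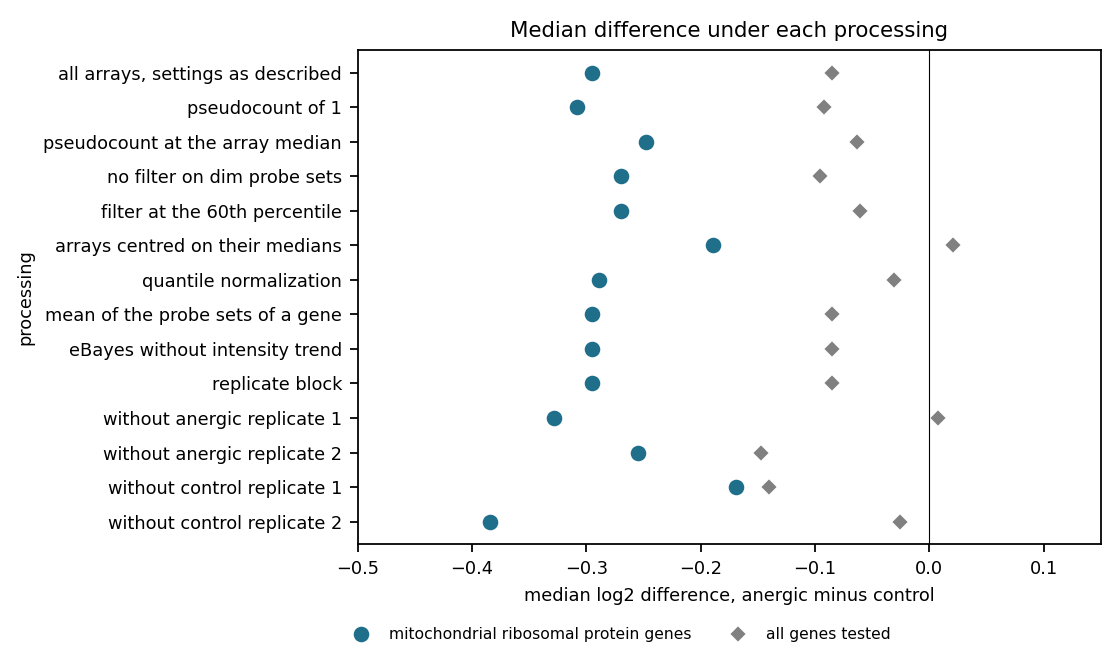
The median log2 difference (x axis, anergic minus control) of the mitochondrial ribosomal protein genes (circles) and of all genes tested (diamonds) is shown under each processing (y axis). The members' median lies between -0.38 and -0.17 and below that of all genes in every case, but by 0.029 without control array 1.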

How the data were processed

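RNA of 2 anergic and 2 control samples of a mouse Th1 clone was labelled with biotin and hybridised to Affymetrix MG-U74Av2 arrays, 1 colour and 1 array per sample. The deposited values are intensities per probe set on a linear scale, read from the file's values. How the authors scanned, summarised and background-corrected the arrays is not stated in the labels or the file. The trimmed mean (2% from each end) was 500.3 on every array, so the deposited scaling was kept. Groups and replicate numbers come from the sample titles. The number of arrays limits the precision: with 2 against 2, the smallest two-sided p of an exact permutation test is 0.333.

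Intensities were transformed to log2(intensity + 29.15), where 29.15 is the median over the arrays of each array's 20th percentile. Of 12488 probe sets, 66 controls were left out; 10833 of the rest have 1 gene symbol, 396 several and 1193 none in the platform annotation, and only those with 1 symbol were named. Probe sets with a mean log2 value above the 40th percentile were kept (7453), and each gene was represented by its brightest one (5583 genes). Differences, anergic minus control, were tested with lmFit and eBayes (intensity trend) in limma 3.58.1 under R 4.3.3, with Benjamini-Hochberg adjustment over all genes and a threshold of 0.05. The fit had 2 residual and 7.74 prior degrees of freedom. The fit was also run on simulated data with independent errors, which hold no shift shared by the genes of an array. That run therefore does not measure how the fit performs on these arrays.

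All members are named, with array values for the 12 of smallest p. From each other list, genes past the threshold and the 2 tested genes with the smallest p (Klrd1 alone for CD8 and NK cells) are named, and others only where a sentence turns on them. The members and lists were chosen with earlier results of these data known. The cytosolic ribosomal protein list leaves out kinase genes whose symbols begin alike. The alternatives were 2 pseudocounts, 2 filters, centring, quantile normalization, the mean of a gene's probe sets, no intensity trend, a replicate block and leaving out each array.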

Additional observations from a re-analysis of the deposited data

How the results depend on the processing

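The members' median kept its sign in 13 alternatives, and 34 members were negative in all of them, 3 (Mrps25, Mrps33 and Mrpl36) positive in all, and 21 changed sign in at least 1. Leaving out each array gave medians from -0.38 to -0.17 (-0.17 without control replicate 1), 0 to 1 members higher and 0 to 1 lower (Mrpl23 without control replicate 2), and 30 to 164 genes higher and 20 to 116 lower over all genes, against 74 and 47. The number of members called higher was 0 with no filter, centring, quantile normalization, the mean of the probe sets or no intensity trend. Over all genes, no filter gave 30 lower, centring 47 higher and 13 lower, and no trend 32 higher and 12 lower. With the replicate block, 348 of 5583 genes were higher and 359 lower. Of the 58 members 1 was higher and 4 were lower (limma adjusted p = 0.0218 for Mrpl12, 0.0248 for Mrpl21, 0.00105 for Mrpl23 and 0.0252 for Mrpl40). The share of members that were lower was close to that of all genes. The labels do not say that the numbers pair the arrays. Same-numbered deviations from the group means correlated at 0.522 over all genes, with 2 pairs only. The cause of these changes was not tested. With 2 arrays per group and no stated cultures, small differences could not be resolved, and dim members such as Mrpl54 (SE 0.55) and Mrps16 (SE 0.53) had wide errors.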
